A study of Mus musculus with 14 samples.

Results

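The Foxo genes encode forkhead transcription factors that act at the end of insulin and growth factor signalling. In the merged open-chromatin list of mouse blood progenitors, the peaks named for Foxo1, Foxo3 and Foxo6 were taken, 68 of 92842 peaks in all. The peaks were taken by gene name alone, but the genes were chosen with earlier results of these data known. Of the 68 peaks, 37 belonged to Foxo1, 20 to Foxo3 and 11 to Foxo6. The remaining family gene, Foxo4 on the X chromosome, is no member and is given only for comparison, with 1 peak.

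The assay was ATAC-seq, which marks accessible DNA by letting a transposase insert sequencing adapters into it. The cells were wild-type C57BL/6 cells sorted with fluorescent antibodies from mice of 8 to 12 weeks. There were 7 populations with 2 libraries each: multipotent progenitors (MPP), common myeloid (CMP), common lymphoid (CLP), granulocyte and macrophage (GMP), megakaryocyte and erythroid (MEP) and B cell progenitors (ProB) from bone marrow, and T cell progenitors (ProT) from thymus. The labels name no genetic change or treatment for any population, and whether both libraries of a population came from different animals is not stated in them. The list merges the peaks of all populations and carries no value per library or population, so a peak below may have been open in any of them, depth is unknown, and no population was compared with another. Of 18 marker genes of these lineages, among them Cd3e, Gata1, Mpo and Flt3, 17 had a peak within 1 kb of their transcription start site (TSS), against 55.5% of all coding genes. The exception was Elane, a neutrophil elastase gene, whose nearest peak lay 2.37 kb away.

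When growth factors activate PI3-kinase, the kinase Akt phosphorylates Foxo proteins, 14-3-3 proteins bind them and they leave the nucleus. When the signal falls they return and bind DNA at a forkhead core motif, where they switch on genes of cell cycle arrest, stress resistance and cell death. In blood, Foxo1 is known for its role in early B cells and in lymphocyte homing, and Foxo3 for the maintenance of stem cells, while Foxo6 is best known from the brain.

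The promoters of Foxo1 and Foxo3 each lay under a peak, and their sequences are shown because they are the only Foxo peaks whose bases could be read here. Both are from the RefSeq promoter table (GRCm38.p6, the assembly of mm10) and end 1 base before the TSS used by the list. Capitals mark the GC box (GGGCGG) and the CCAAT box (CCAAT), each on either strand, and no match overlapped another.
Foxo1, chr3:52268087-52268336, plus strand: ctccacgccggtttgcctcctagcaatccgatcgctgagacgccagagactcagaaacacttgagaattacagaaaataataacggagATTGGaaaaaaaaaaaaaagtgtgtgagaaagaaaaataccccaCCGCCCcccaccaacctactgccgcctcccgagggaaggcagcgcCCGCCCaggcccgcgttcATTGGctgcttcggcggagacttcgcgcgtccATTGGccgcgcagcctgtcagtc
Foxo3, chr10:42276743-42276945, minus strand: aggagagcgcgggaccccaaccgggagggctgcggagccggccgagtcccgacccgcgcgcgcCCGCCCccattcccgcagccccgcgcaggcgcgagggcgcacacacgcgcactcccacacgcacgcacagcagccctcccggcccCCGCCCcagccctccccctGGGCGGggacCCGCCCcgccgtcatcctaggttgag

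Foxo1 had 3 CCAAT boxes, at 162, 55 and 23 bases before the TSS, and 2 GC boxes. Foxo3 had no CCAAT box and 4 GC boxes, the closest of them starting 26 bases before the TSS. The letters differ in number between the genes, so each is set against promoters of its own length. At the length shown for Foxo1 (250 bases), 33.8% of the 32851 promoters of the table held a CCAAT box and 32.7% a GC box. At the length shown for Foxo3 (203 bases) the shares were 29.7% and 31.2%. The Foxo3 promoter was the richer in G and C, with 79.3%, a level that 2.01% of promoters reached, while that of Foxo1 had 56% against a median of 52.4%. CpG pairs stood near the number that base content gives in both, at 1.04 times in Foxo1 and 0.916 times in Foxo3. Neither sequence held the forkhead core GTAAACA or the shorter TGTTTA on either strand. These motifs are found in 3.17% and 12% of promoters of 250 bases and in 2.53% and 9.58% of those of 203 bases. A match or its absence describes only the letters of these windows. Foxo6 and Foxo4 have no entry in the promoter table.

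The 3 genes had 1 peak each within 1 kb of the TSS, but not in the same place. The Foxo1 peak (chr3:52268000-52268498) and the Foxo3 peak (chr10:42276581-42277079) both had their centre at -88 bp from the TSS and covered it. The Foxo6 peak (chr4:120287696-120288194) had its centre at -684 bp, and its nearer edge lay 435 bp from the TSS, which stood outside the peak. The TSS of Foxo3 in the list lies 47 bp upstream of the gene's end in the reference table, while for Foxo1 and Foxo6 both sources agree. With 1 such peak each, the share within 1 kb follows from the number of peaks of the gene, 1 of 37, 1 of 20 and 1 of 11, against 16.2% of all peaks.

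By number of peaks, Foxo1 stood near the top of the list. Only 53 of the 19105 genes named, Foxo1 included, had 37 peaks or more (0.277%). Foxo3, with 20, was reached by 503 genes (2.63%) and Foxo6, with 11, by 2062 (10.8%), while the median gene had 3 peaks. Of all coding genes 75.2% had a peak at all and 1.99% had 20 or more, as Foxo1 and Foxo3 did. Among the 44 coding forkhead genes of the reference table Foxo1 was second to Foxp1, a forkhead gene of B cell development with 88 peaks, and Foxn3 followed with 26. Foxo3 took the fourth place, and Foxo6 had as many peaks as Foxa2, a liver and gut factor. The median forkhead gene had 3 peaks, 8 had none, and 9 had 10 or more, a mark that 9.48% of all coding genes reached.

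**Figure D1:**
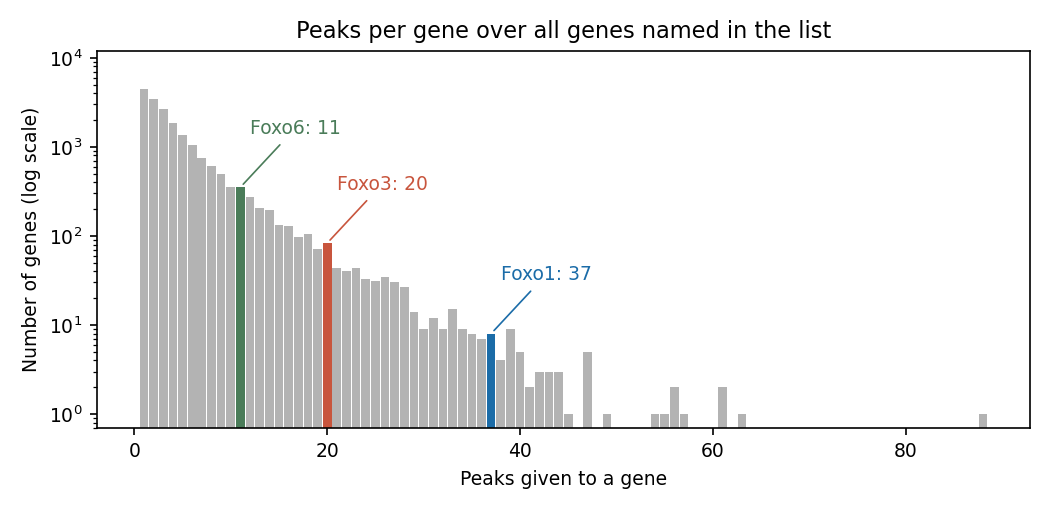
Number of genes (log scale) against the number of peaks given to a gene, for all 19105 genes named in the list. Coloured bars are the counts that hold Foxo6 (11 peaks), Foxo3 (20) and Foxo1 (37), which lie increasingly far into the right tail.

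The ranks depended on how peaks were counted. A peak belongs in the list to the gene with the nearest TSS, so a gene with distant neighbours collects peaks from a wide stretch. Per length of the gene body, Foxo1 had 12.2 peaks per 100 kb and Foxo3 13.7, and of the 3295 coding genes with at least 5 peaks in the body 33.0% and 26.7% were at least as dense. Their median was 9.30 per 100 kb. Foxo6 had 14.9 per 100 kb, but from only 3 peaks in the body, so it was not ranked. Within 100 kb on each side of the TSS, whichever gene was named, there were 23 peaks for Foxo1, 19 for Foxo3 and 17 for Foxo6. At least as many surrounded 14.8%, 26.1% and 33.5% of the TSSs of 17492 coding genes, whose median was 12. All 3 Foxo genes were thus above the median on this count, and Foxo1 was again the highest of them, but none was as far out as by the named peaks.

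**Figure D2:**
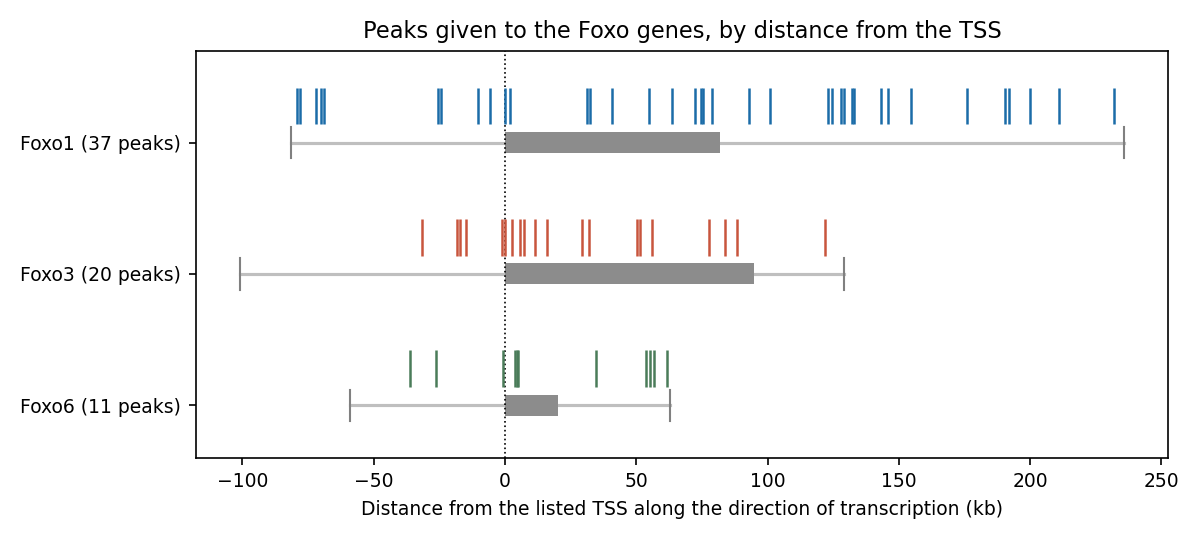
Each vertical line is a peak, placed by its distance in kb from the TSS of its gene along the direction of transcription (dotted line at 0). Grey boxes are gene bodies, and thin lines end midway to the TSS of the next gene named in the list; Foxo1 peaks run from 79.1 kb upstream to 232 kb downstream, Foxo3 peaks run from 31.6 kb upstream to 122 kb downstream, and Foxo6 peaks form a small group near the TSS and another 53.8 to 61.7 kb downstream.

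Foxo1 (gene chr3:52268337-52350109, 81.8 kb, plus strand) had most of its peaks outside the gene. Intergenic sequence held 26 of the 37 (70.3%, exact 95% interval 53.0 to 84.1), against 39.3% of all peaks. The remaining peaks were 9 in introns (24.3%, 11.8 to 41.2, against 42% of all peaks), 1 at the promoter and 1 in the 3' UTR, in exon 3 of 3 (chr3:52347030-52347528). All 9 intronic peaks were in intron 1 of 2, from 1.76 to 75.4 kb after the TSS, so that intron spans most of the 81.8 kb gene. In all, 27 peaks (73.0%, 55.9 to 86.2, which holds the 57.6% of all peaks) were downstream of the TSS. Over 100 kb from it were 16 (43.2%, 27.1 to 60.5), against 12.4% of all peaks. The stretch nearest to the Foxo1 TSS measured 317 kb, of which only 81.7 kb lay upstream. No upstream peak of Foxo1 could thus be over 100 kb away, and both shares depend on where the neighbouring TSSs lie. Peaks of 1 gene share their surroundings and are not replicates, so these intervals cover counting error only and no test was made.

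Along the locus the Foxo1 peaks fell into 12 groups when peaks with centres at most 10 kb apart were joined. The farthest upstream group held 5 peaks between 79.1 and 69.0 kb before the TSS (chr3:52189024-52199572). After an empty stretch of 43.3 kb came a pair at 25.7 and 24.5 kb upstream, of which the first lay in an MMERGLN retroviral element, and then 4 peaks from 10.4 kb upstream to 1.76 kb downstream, the promoter peak among them. Within intron 1 there was no peak between 1.76 and 31.3 kb. A group of 3 peaks followed at 31.3 to 40.9 kb, and 6 more peaks lay from 54.8 to 78.9 kb, the last of them the one in the 3' UTR. Beyond the end of the gene the largest group held 6 peaks in 10.5 kb (chr3:52391165-52401673), 123 to 133 kb from the TSS. It was followed by groups of 3 peaks at 143 to 155 kb and at 190 to 200 kb, and by single peaks at 176, 211 and 232 kb. A pair at 92.8 and 101 kb lay between the gene and the group of 6.

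Averaged over the flanks and the gene body, peak density was similar across Foxo1, although peaks were unevenly spaced within these parts. The stretch nearest to its TSS measured 317 kb and held 11.7 peaks per 100 kb, against 3.23 over chromosome 3 from first to last peak. The chromosome value covers all sequence between those peaks, with or without genes nearby, so it is no like-for-like baseline. For gene bodies the median was 9.30 per 100 kb over coding genes with at least 5 peaks in the body. The upstream flank of Foxo1 had 12.2 peaks per 100 kb, the gene body 12.2 and the downstream flank 11.0. The gene body held 10 peaks against 13 for Foxo3, and the flanks held 27 against 7. Upstream and downstream flanks measured 81.7 and 153.9 kb in Foxo1 and 101.0 and 34.3 kb in Foxo3. Each upstream flank includes the promoter peak. Where the stretch ends, the assignment turns over: the peak 232 kb downstream (chr3:52499978-52500476) is given to Foxo1, and the next one, 245 kb from the Foxo1 TSS and 227 kb from that of the noncoding gene Gm2447, is given to Gm2447. Upstream, the last Foxo1 peak lay 79.1 kb from its TSS, and the next, 88.4 kb from Foxo1 and 74.9 kb from Maml3, a Notch coactivator gene, is given to Maml3.

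Foxo3 (gene chr10:42181845-42276695, 94.9 kb, minus strand) had most of its peaks inside the gene. Introns held 13 of its 20 peaks (65%, exact 95% interval 40.8 to 84.6), 6 were intergenic (30%, 11.9 to 54.3) and 1 was at the promoter. The shares of all peaks, 42% in introns and 39.3% intergenic, lie inside both intervals. The intervals of the intron shares of Foxo1 and Foxo3 overlap only between 40.8% and 41.2%, and the difference was not tested. Of the intronic peaks 11 were in intron 2 of 3 and 2 in intron 3, and none in intron 1. Peaks of intron 2 ran from 2.69 to 77.9 kb after the TSS, so that intron spans most of the 94.9 kb gene. The gene body had 13.7 peaks per 100 kb, the upstream flank 5.94 and the downstream flank 2.92. Chromosome 10 had 4.16 from first to last peak, a value that is again no like-for-like baseline. The upstream flank was uneven: all 6 of its peaks, the promoter peak included, lay in the first 35.9 kb, before the body of the next coding gene. Only 1 Foxo3 peak lay over 100 kb from the TSS, at 122 kb (chr10:42154614-42155112), and it was the single Foxo3 peak in a repeat, an L2 element.

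The Foxo3 peaks formed 7 groups. The largest held 7 peaks around the promoter, from 1.18 kb upstream to 16.03 kb downstream (chr10:42260463-42278172). Its upstream end lay in a CpG island, and 5 of its peaks were in intron 2. Farther into the intron there were 2 peaks at 29.3 and 32.1 kb and 3 at 50.4 to 56.0 kb, and a group of 3 at 77.9 to 88.3 kb reached into intron 3. Upstream, 3 peaks stood at 14.8, 17.2 and 18.5 kb and 1 at 31.6 kb. The next peak beyond, 160 kb from the Foxo3 TSS and 41.5 kb from that of Afg1l, a mitochondrial ATPase gene that the list calls Lace1, is given to Afg1l.

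Foxo6 (gene chr4:120267078-120287261, 20.2 kb, minus strand) had 3 peaks in its only intron, 1 at the promoter and 7 in intergenic sequence (63.6%, exact 95% interval 30.8 to 89.1, which holds the 39.3% of all peaks). The 3 intronic peaks stood side by side, 3.93, 4.47 and 5.05 kb from the TSS, with centres as little as 0.54 kb apart. One of them is annotated as a CpG island and another as a MIR element, an ancient SINE. Downstream there was 1 peak at 34.5 kb and a group of 4 at 53.8 to 61.7 kb (chr4:120225264-120233760). Upstream there were 2, at 26.2 and 36.3 kb. The group of 4 lay at the edge of what the list gives to Foxo6: the next peak, 63.4 kb from Foxo6 but 62.5 kb from Edn2, an endothelin gene, is given to Edn2.

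**Figure D3:**
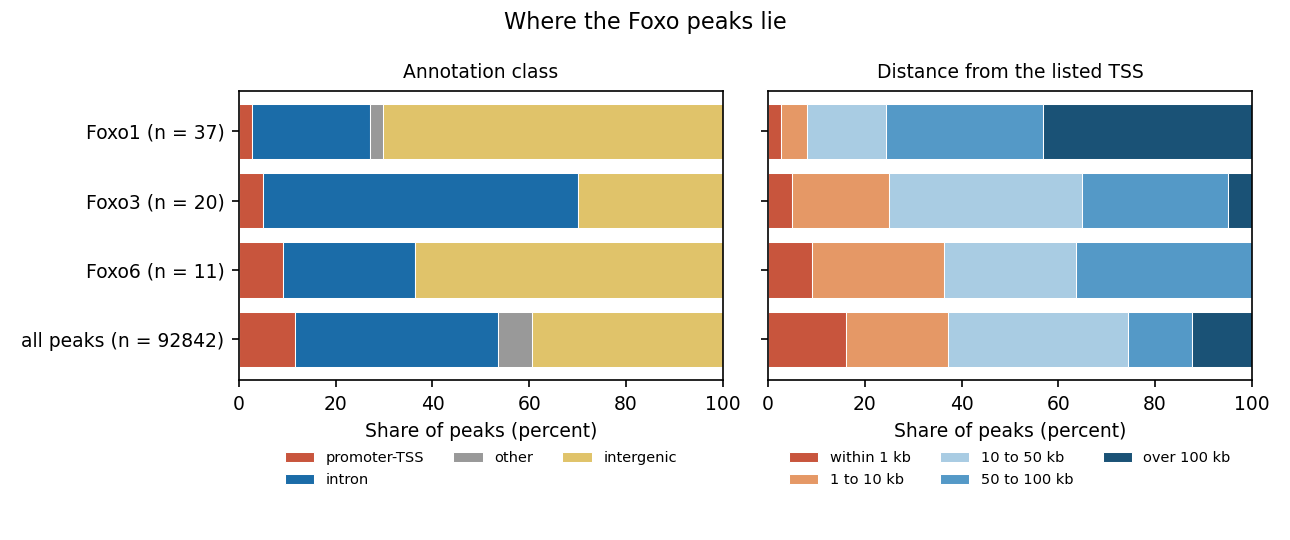
Share of peaks in percent by annotation class (left) and by distance from the listed TSS (right), for each Foxo gene and for all 92842 peaks. Foxo1 has the largest intergenic share (70.3%) and the largest share over 100 kb (43.2%) and Foxo3 the largest intronic share (65%).

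Gaps in the Foxo genes were taken only between neighbouring peaks of the same gene. The gap values over all peaks also hold gaps between peaks of different genes, so they are no like-for-like baseline. The median gap between neighbouring centres was 5.86 kb in Foxo1 (36 gaps), 4.56 kb in Foxo3 (19) and 4.79 kb in Foxo6 (10), against 8.76 kb over all neighbouring peaks. Gaps under 2 kb made up 11 of 36, 4 of 19 and 4 of 10, against 15.3% of all gaps. Repeats held 3 of 37 Foxo1 peaks, 1 of 20 Foxo3 peaks and 2 of 11 Foxo6 peaks, together 8.82% (exact 95% interval 3.31 to 18.2, which holds the 16% of all peaks).

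The genes whose peak sets looked most like each Foxo gene were found among the 2414 genes with at least 10 peaks. Likeness was the distance over 5 scaled measures (log2 peak number, intronic share, intergenic share, share within 1 kb of the TSS and log2 median distance to the TSS), each in SDs over those genes. For Foxo1 they were Aebp2, a Polycomb cofactor, with 33 peaks (distance 0.495), the noncoding A330074K22Rik with 34 (0.598) and Ly86, which encodes MD-1, with 39 (0.662). For Foxo3 they were Zfhx3, a homeobox factor, with 20 peaks (0.0316), Apbb1ip, a Rap1 effector in leukocytes, with 20 (0.232) and Jakmip1 with 20 (0.237). For Foxo6 they were Vps54 (0.289), Sfmbt2 (0.294) and Hs1bp3 (0.313), with 11 peaks each. The Foxo genes were not among each other's nearest: Foxo3 lay 2.91 from Foxo1, Foxo6 3.72 from Foxo1, and Foxo6 2.49 from Foxo3.

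The other genes of the pathway were read from 8 lists of 107 different genes, all of them found in the reference table. A promoter peak was present at 93 of them (86.9%), against 55.5% of coding genes, and 39 (36.4%) had at least 10 peaks, against 9.48%. The median was 7 peaks per gene with a peak, or 6 with the 4 genes without a peak counted as 0, against 3 and 2 for all coding genes. The lists were chosen by hand with results of these data known, so the counts are a description and were not tested.

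Among receptors and adaptors that feed the pathway all 13 had a promoter peak, with a median of 8 peaks. Igf1r, the receptor of insulin-like growth factor, had 22 and Kit, the stem cell factor receptor, 20. Of the 9 class I PI3-kinase subunits 7 had a promoter peak, and Pik3r1, the main regulatory subunit, had 57, more than Foxo1. Pik3cg, a catalytic subunit gene, had 18, and Pik3r2 had none. The median over the 8 subunits with a peak was 9.5. The list of kinases that activate Akt or phosphorylate Foxo, subunits of their complexes included, held 13 genes with a median of 5. In it, Sgk1, a kinase related to Akt, had 21. Phosphatases on the other side of the pathway had a median of 9, and Inpp4b, a phosphoinositide phosphatase, had 31. Only 4 of the Inpp4b peaks lay within 50 kb of the TSS. The genes for 14-3-3 binding, export, modification or turnover of Foxo had a median of 4 over genes with a peak, or 3.5 over all. They were led by the 14-3-3 gene Ywhaz with 23 and the deubiquitinase gene Usp7 with 12, and Sirt2 had none.

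Genes known as Foxo targets were read in 3 lists by role, and differences between the lists were not tested. Lymphoid targets had a median of 14 peaks over genes with a peak, or 13 over all 16. Both were the highest of the 8 lists by all named peaks, and 10 of the 16 genes had at least 10. Counting only peaks within 50 kb of the TSS the median over genes with a peak was 9, below the 9.5 of the PI3-kinase subunits. By all named peaks the lymphoid targets were led by Bach2, which encodes a transcriptional repressor, with 37 peaks, as many as Foxo1. S1pr1, the receptor that guides lymphocyte exit, followed with 36. Within 50 kb of the TSS Bach2 had 7 of its peaks and S1pr1 19, and Bach2 had 0 within 1 kb. Foxp3, the factor of regulatory T cells, had none at any distance. Il7r, the interleukin 7 receptor that Foxo1 is known to switch on, had 19, and Rag1 and Rag2, the recombinase genes, had 2 and 15. The 16 cell cycle and survival targets had a median of 8.5 and a promoter peak in every case, led by Bcl2l11, which encodes the death factor Bim, with 35 and Cited2 with 33. The Cdk inhibitor genes Cdkn1a and Cdkn1b had 4 each. Stress, metabolism and autophagy targets had a median of 5 over genes with a peak, or 4.5 over all. They were led by Sesn3, a sestrin gene, with 26 and Irs2, an insulin receptor substrate, with 13. Within 50 kb of the TSS Sesn3 had 7 and Irs2 had 3. Gabarapl1 had none, and the liver gene G6pc and the muscle gene Trim63 had 1 each, neither within 1 kb of the TSS.

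**Figure D4:**
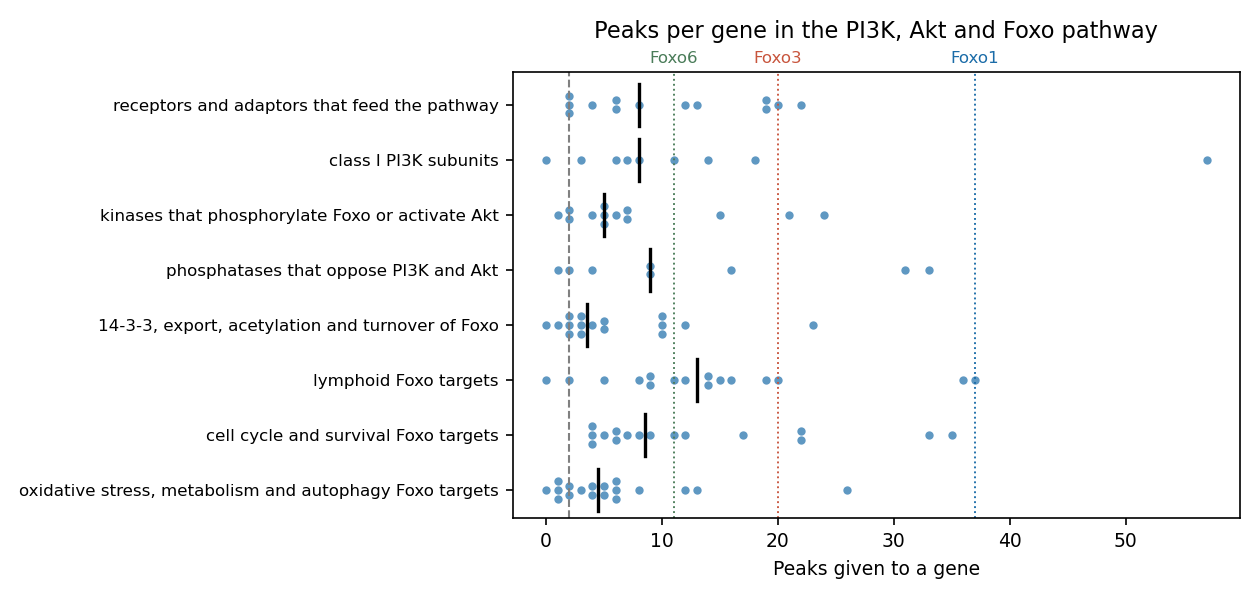
Peaks per gene in 8 lists of the PI3-kinase, Akt and Foxo pathway, 1 point per gene. Black bars are medians over all genes of a list, genes without a peak counted as 0; the dashed line is the median of all coding genes (2), and dotted lines mark Foxo6 (11), Foxo3 (20) and Foxo1 (37), of which the last is exceeded only by Pik3r1 and equalled by Bach2.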

How the data were processed

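The study measured ATAC-seq in 14 libraries of 7 sorted populations, grouped by their titles. The authors deposited 1 merged list of 92842 peaks of 499 bp, annotated with annotatePeaks against mm10 per the file header; HOMER 4.10.2 is named in the submitters' processing notes. Aligner, peak caller, threshold and merging: not given in the sources used here. The peak score deposited by the authors is 0 in every row and was not used. The other deposited values are coordinates and signed distances to the nearest TSS in bp.

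Rows naming Foxo1, Foxo3 or Foxo6 were taken. The members and lists were chosen with earlier results of these data known. Gene bodies, symbols and promoters came from RefSeq tables (GRCm38.p6), matched by gene identifier. The TSS and strand of a gene were those on which all its peaks agree. Named were the members, the 3 genes most like each, each list's 2 leading genes and those without a peak, neighbours, and the 3 leading forkhead genes; other names were chosen after their values were seen, and some genes under this rule are not reported here. Shares have exact (Clopper-Pearson) 95% intervals. Alternatives were other distance windows, gene bodies, gap sizes, repeats and motifs. Functions were tested on simulated data. Python 3.11.15, pandas 2.3.3 and scipy 1.17.1 were used.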

Additional observations from a re-analysis of the deposited data

How the results depend on the processing

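Of 64 alternative values, 37 stayed close to the value given and 27 moved; a count or median was close within 1.5 times, and a share within its exact 95% interval. Counted within 10, 50 and 100 kb of the TSS, Foxo1 had 3, 9 and 21 peaks. Within 10 and 50 kb Foxo3 had 5 and 13 peaks and Foxo6 4 and 7. In the gene body alone Foxo1, Foxo3 and Foxo6 had 10, 13 and 3 peaks, so that Foxo3 and not Foxo1 led, as it also did within 10 and 50 kb, and with 10 kb added on each side Foxo1 had 12 and Foxo6 had 4. Within 2 kb Foxo1 and Foxo3 had 2 promoter peaks each, and within 500 bp Foxo6 had 0. By density in the gene body 33.0% of genes reached Foxo1 and 26.7% reached Foxo3, while Foxo6 had too few body peaks to be ranked. By peaks within 100 kb of the TSS, a count added after the data were seen, the shares were 14.8% for Foxo1, 26.1% for Foxo3 and 33.5% for Foxo6. With gaps of 5 kb Foxo1 had 20 groups, and with 20 kb Foxo1, Foxo3 and Foxo6 had 6, 3 and 3. Within 50 kb the list medians were 5 for receptors, 4 for phosphatases and 9 for lymphoid targets, which then stood below the PI3-kinase subunits, unmoved at 9.5. Leaving out libraries was not run, since the list holds no value per library. No paired analysis was possible because no result comes from a test between libraries. The depth is unknown, so a gene without a peak may have open chromatin under the threshold used.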

Other observations

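The surroundings of Foxo1 hold more open chromatin than its own 37 peaks. The next coding gene downstream, Cog6, a Golgi complex gene, lies 632 kb beyond the end of Foxo1, and 56 peaks lie between them. Of these 17 are named for Foxo1 and 39 for Cog6 or for the noncoding genes Gm2447 and Gm20750. Upstream, 14 peaks lie in the 163 kb between Foxo1 and Maml3, 10 of them named for Foxo1. For Foxo3, 11 peaks lie in the 163 kb towards Armc2, and only 1 is named for Foxo3, while all 6 in the 35.9 kb towards Afg1l are. The counts upstream of Foxo1 and Foxo3 include their promoter peaks. Which gene any of these peaks acts on was not tested.

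The reference table places noncoding genes over several Foxo peaks. Gm38485 covers 6 of the intronic Foxo3 peaks. Gm36134 covers all 5 peaks downstream of Foxo6, and Gm36574 covers 1 upstream of it. Gm30125 and Gm38537 cover 2 Foxo1 peaks each. These are gene models of the RefSeq table, and their activity in these cells was not measured. The single Foxo4 peak (chrX:101254077-101254575) was annotated as promoter, with its centre 0.202 kb from the TSS.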
